A study of Canis lupus familiaris with 4 samples.

Results

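The 10 genes described here encode enzymes that modify and crosslink collagen: the 5 lysyl oxidases LOX, LOXL1, LOXL2, LOXL3 and LOXL4, the 3 lysyl hydroxylases PLOD1, PLOD2 and PLOD3, and 2 catalytic alpha subunits of prolyl 4-hydroxylase, P4HA1 and P4HA2. They were chosen by gene symbol from the collagen maturation pathway, and all 10 were among the 30951 genes of the deposited table. RNA was sequenced from canine mesenchymal stromal cells (MSCs), plastic-adherent, matrix-producing cells grown out of adipose tissue. The 4 libraries came from 4 primary cell lines, 1 per dog, all in a single group with no treatment named, kept for 48 h in wells after growth in DMEM that held 10% fetal bovine serum with fungizone, streptomycin and penicillin. Breed, age and sex of the dogs, cell passage and oxygen tension stay unstated in the labels, and each dog is represented by 1 culture and 1 library.

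Collagen is modified in several steps between synthesis and the finished fibre. In the endoplasmic reticulum, prolyl 4-hydroxylase hydroxylates proline, which stabilises the triple helix, and lysyl hydroxylases hydroxylate lysine, which prepares sites for sugars and for crosslinks; both use iron, 2-oxoglutarate, oxygen and ascorbate. Outside the cell, the copper-dependent lysyl oxidases oxidise lysine and hydroxylysine side chains of collagen and elastin to aldehydes, from which the covalent crosslinks of the matrix form. Stromal cells and fibroblasts are known as major sources of these enzymes, and several of the genes are known to respond to hypoxia and to TGF-beta.

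Reads assigned to genes numbered 7474011 to 22411268 per library, with the fewest in dog 4. As a check of the cell type, 9 of 10 MSC markers lay above the median detected gene (limma, as below), whereas NT5E lay below. In dog 4, 7 of these 10 markers had their lowest level, and their summed counts were 79000, 85200, 89400 and 49500 CPM in dogs 1 to 4 (CPM, counts scaled to a common library total). COL1A1, COL1A2 and VIM supplied most of this sum in every dog, so it mainly follows these genes. ENG and ITGB1 were highest in dog 4. Among 7 endothelial, 5 adipocyte and 5 epithelial or mesothelial markers measured, none lay above the median detected gene, and of 9 blood and immune markers CD79A alone was above. The planned markers ADIPOQ, FABP4, KRT8, KRT19, MSLN and CD14 were not found under their symbols and so were not measured. PECAM1, EMCN, CDH1, CIDEC, MS4A1, CD3E and AIF1 had 0 reads in all 4 dogs. Genes of these lists that were neither above nor below included VWF (273, 57, 204 and 26 normalized reads in dogs 1 to 4) and KDR (68, 60, 73 and 74). CSF1R (74, 228, 276 and 104) and PPARG (335, 341, 331 and 115) were likewise neither. At 0 reads a library still allows 3, which is 0.134 to 0.401 CPM; this limit, like the Poisson intervals here, covers counting error only, and reads without molecular identifiers are not independent molecules. In bulk RNA, fewer cells of a type and less RNA per cell cannot be told apart. Among the marker genes, KRT18 stood apart in dog 4 with 943 normalized reads against 6, 8 and 24 in dogs 1 to 3.

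Transcripts of all 10 enzymes lay well above the middle of the expressed genes. A gene's level is its deposited log2 value minus the median over detected genes in that library, where detected means reads in 2 or more libraries. The level exceeded the median detected gene by more than 1 log2 unit in 10 of the 10 genes, against 33.3% of the 17200 detected genes (limma with Benjamini-Hochberg adjustment, adjusted p at most 3.97e-05, above in 4 of 4 dogs for each). With a distance of 3 log2 units in place of 1, 8 of the 10 were above, against 8.07% of all detected genes; the exceptions were LOXL3 and LOXL4 (limma, adjusted p = 0.693 and 0.446). The median level of the 10 genes was 5.09, and that of all detected genes was -0.02. Levels are not corrected for transcript length, and no transcript or coding lengths were used here, so the 10 genes are not ranked against each other and the part of length in a gene's distance from the median was not tested.

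LOXL2 (ENSCAFG00000009187) encodes a secreted and nuclear enzyme that crosslinks collagen type IV and fibrillar collagens. It had 47377, 45995, 31669 and 50419 normalized reads (reads divided by the size factor of the library) in dogs 1 to 4. Dogs 1, 2 and 4 lay close together and dog 3 was the lowest. Its level was 8.08 ± 0.31 (mean ± SD in log2 units, n = 4, the form of every level given below; limma, adjusted p = 4e-09).

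LOX (ENSCAFG00000028461), the founding member of the family and the main crosslinking enzyme of fibrillar collagen and elastin, had 7198, 5519, 7992 and 8950 normalized reads, with dog 2 lowest and dog 4 highest. Its level was 5.52 ± 0.30 (limma, adjusted p = 4.16e-09). LOXL1 (ENSCAFG00000023910), which is needed for the renewal of elastic fibres, had 3937, 3289, 4599 and 4281 normalized reads. The highest library of LOXL1, dog 3, exceeded the lowest, dog 2, by 1.4-fold, the smallest such range among the 10 genes. Counting error was smaller than that range: the exact Poisson 95% intervals were 4470 to 4731 in dog 3 and 3182 to 3398 in dog 2. The level of LOXL1 was 4.65 ± 0.21.

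LOXL3 and LOXL4 had the largest relative differences between dogs. LOXL3 (ENSCAFG00000008358), known for roles in cartilage and palate development, had 1447, 1334, 886 and 2765 normalized reads. Dog 4 was the highest, 3.12-fold above dog 3, the lowest, and the level was 3.23 ± 0.68 (limma, adjusted p = 5.33e-06). LOXL4 (ENSCAFG00000009324), a family member with scavenger receptor domains like LOXL2 and LOXL3, had 2829, 3801, 705 and 1251 normalized reads. Dogs 1 and 2 were high, dogs 3 and 4 low, and the lowest and highest libraries differed by 5.39-fold. The exact Poisson 95% intervals of these extremes were 655 to 757 and 3686 to 3919 normalized reads. The level of LOXL4 was 3.48 ± 1.10, and it remained above the median detected gene when any 1 dog was left out (2.86 to 3.74).

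**Figure D1:**
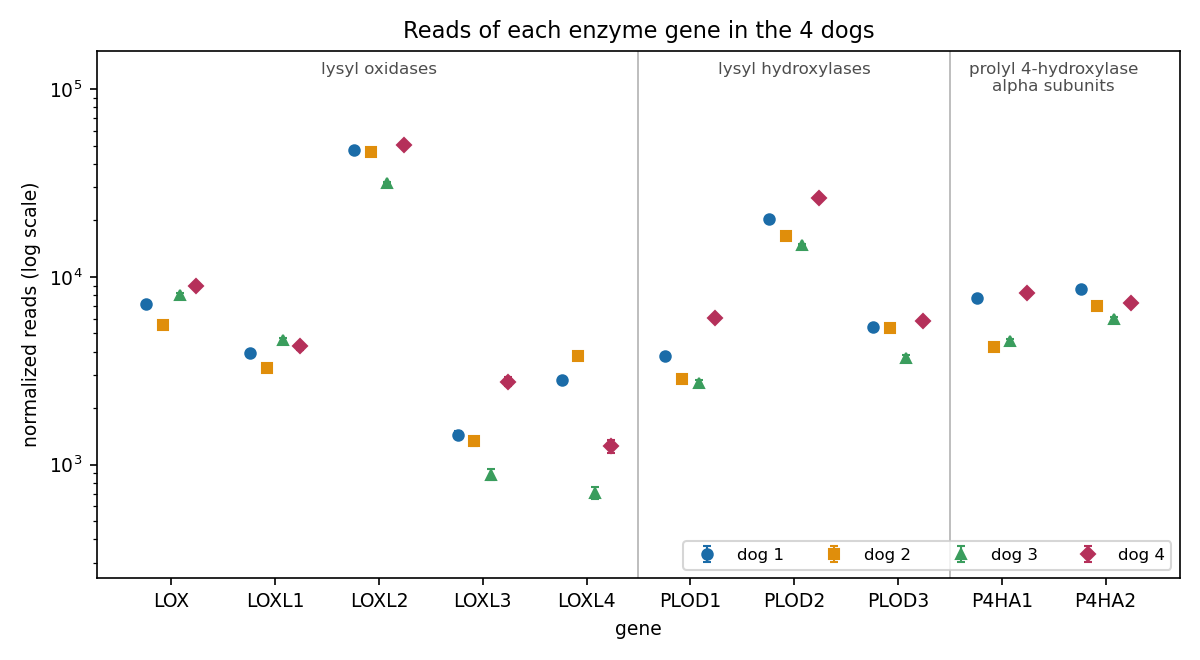
Normalized reads (log scale) of the 10 genes on the x axis in each of the 4 dogs, with the exact Poisson 95% interval of the count as error bar (mostly smaller than the symbol). LOXL2 lies between 31669 and 50419 reads in all dogs, while LOXL4 runs from 705 in dog 3 to 3801 in dog 2.

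The lysyl hydroxylases were ordered alike across dogs. PLOD2 (ENSCAFG00000008101) encodes the enzyme that hydroxylates lysine in the telopeptides, the ends of the collagen molecule where crosslinks begin. It had 20226, 16500, 14793 and 26460 normalized reads and a level of 6.89 ± 0.38 (limma, adjusted p = 4e-09). PLOD1 (ENSCAFG00000016522), which acts mainly on the helical part of collagen, had 3809, 2874, 2710 and 6068 normalized reads, and its level was 4.53 ± 0.54 (limma, adjusted p = 6.79e-08). PLOD3 (ENSCAFG00000013860), whose product also adds sugars to hydroxylysine, had 5403, 5354, 3716 and 5799 normalized reads, with a level of 4.97 ± 0.30 (limma, adjusted p = 5.22e-09). In each of the 3 genes dog 4 was the highest and dog 3 the lowest. The distance between these libraries was 2.24-fold for PLOD1, 1.79-fold for PLOD2 and 1.56-fold for PLOD3.

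The prolyl 4-hydroxylase alpha subunits carry the active site of an enzyme that also needs the beta subunit P4HB. P4HA1 (ENSCAFG00000014573), the widely expressed isoform, had 7716, 4239, 4565 and 8232 normalized reads and a level of 5.22 ± 0.51 (limma, adjusted p = 1.91e-08). Dogs 1 and 4 were close to each other and so were dogs 2 and 3, and the extremes differed by 1.94-fold. P4HA2 (ENSCAFG00000000824), the alternative isoform, had 8669, 6995, 5952 and 7293 normalized reads and a level of 5.49 ± 0.23, with a range of 1.46-fold. P4HB varied less than either, with 16544, 14608, 14619 and 15053 normalized reads and a level of 6.57 ± 0.10. The third isoform, P4HA3, had 629, 956, 1092 and 269 normalized reads (level 2.07 ± 0.87) and was lowest in dog 4, where P4HA1 was highest.

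The spread between dogs of the 10 genes had a median SD of 0.35, against 0.36 over all detected genes and 0.24 over the 5723 genes above the median. Set against the prior SD that limma fits along the level of the genes, no gene passed: 0 of the 10 and 0% of the 17200 detected genes (one-sided F test of the variance over the trended prior variance, Benjamini-Hochberg, smallest adjusted p of any gene 0.0796). At an unadjusted p under 0.05 there were 895 genes, LOXL4 and LOXL3 among them. The variance of LOXL4 was 20 times its prior variance (adjusted p = 0.267, n = 4, limma) and that of LOXL3 was 7.66 times (adjusted p = 0.676, limma). These tests rest on the spread between 4 dogs with 1 culture each. Without dog 4 the SD of LOXL3 was 0.38 in place of 0.68, and without dog 3 that of LOXL4 was 0.81 in place of 1.10. LOXL1, LOXL2 and P4HA2 had variances below their prior, at 0.667, 0.445 and 0.684 times. LOXL2 had an SD of 0.31 and a prior SD of 0.47. LOX, with a similar SD of 0.30, had a prior SD of 0.28 and 1.16 times its prior variance. The low ratio of LOXL2 thus rests on its higher prior.

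**Figure D2:**
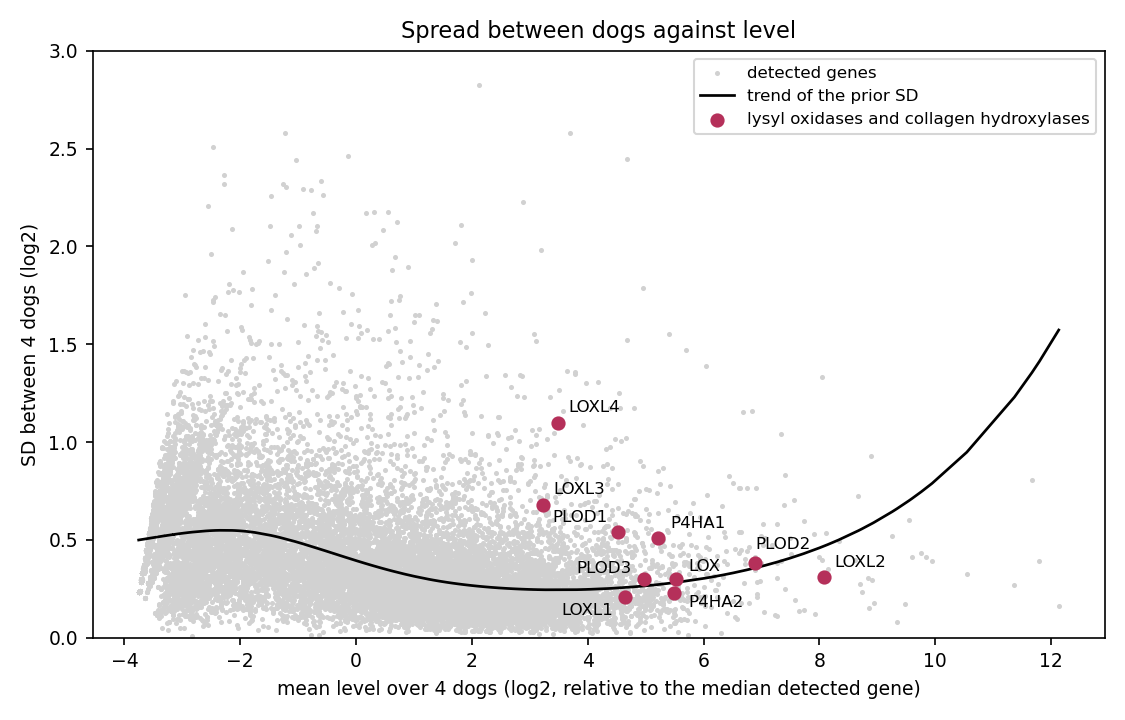
SD between the 4 dogs (y axis, log2) against the mean level relative to the median detected gene (x axis, log2) for all detected genes (grey), the 10 enzyme genes (red) and the prior SD of limma (line). LOXL4 (SD 1.10) and LOXL3 (SD 0.68) lie farthest above the line among the 10, and LOXL2 (SD 0.31) lies under it.

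Dog 4 held the highest level in 7 of the 10 genes (LOX, LOXL2, LOXL3, PLOD1, PLOD2, PLOD3 and P4HA1), and dog 3 the lowest in 7 (LOXL2, LOXL3, LOXL4, PLOD1, PLOD2, PLOD3 and P4HA2). Over all detected genes, dog 4 was highest in 36.8% and dog 3 lowest in 31.1%, so the libraries themselves are unequal in this respect. The count in dog 4 was 6 under quantile normalization and 7 after scaling to total reads, and that in dog 3 was 7 in both. Over all detected genes dog 4 was highest in 31.3% under either scaling, and dog 3 lowest in 25.0% and 21.1%. Relative to the mean of the 4 dogs, the median deviation of the 10 genes was 0.11, -0.18, -0.41 and 0.27 log2 units in dogs 1 to 4. Dog 4 was also the shallowest library. After all libraries were thinned to 7474011 reads the counts were again 7 and 7, against 37.5% and 33.7% of all detected genes. Dog 4 was also lowest in 7 of the 10 MSC markers, COL1A1 and COL1A2 among them, against 28.8% of all detected genes. The part of these markers in the enzyme pattern was not tested. These comparisons of single libraries have no test.

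**Figure D3:**
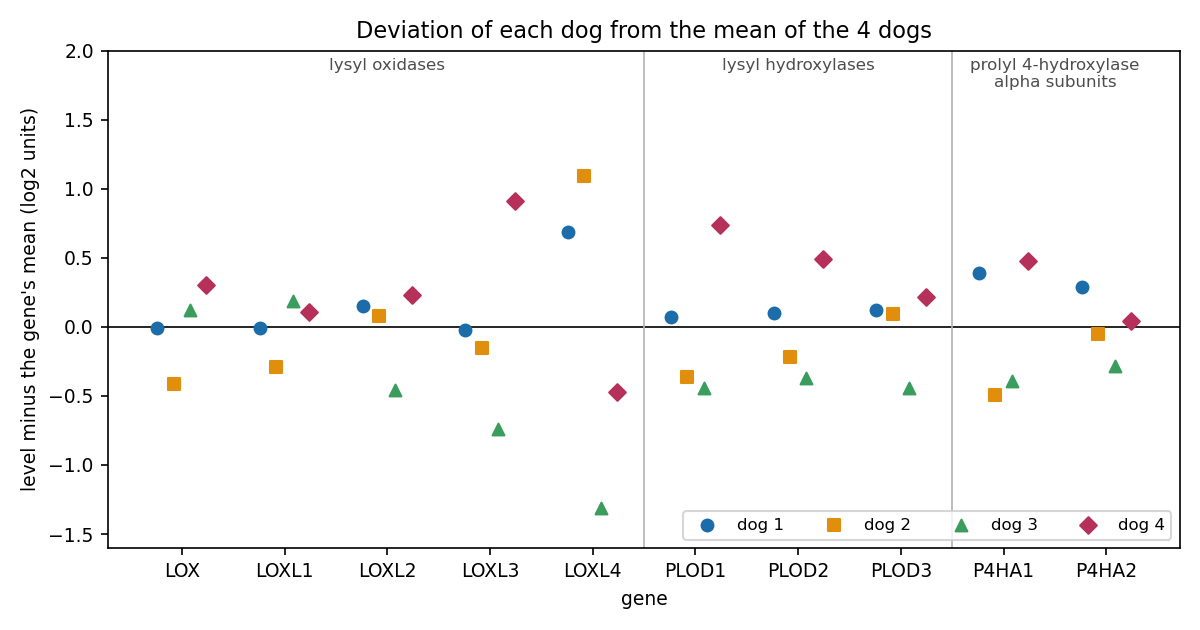
Level of each gene in each dog minus the mean of the gene over the 4 dogs (y axis, log2 units), with the genes on the x axis. Dog 4 (diamonds) lies above 0 in every gene except LOXL4, and dog 3 (triangles) lies below 0 in every gene except LOX and LOXL1.

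Ratios between 2 genes of a family show how the enzymes shift against each other across dogs, and gene length cancels when such a ratio is set against its own mean. LOX and LOXL1 kept the steadiest ratio of the 10 lysyl oxidase pairs, with an SD of 0.14 (log2) and a range of 1.25-fold between dogs. LOX and LOXL4 had the least steady one, with an SD of 1.36 and a range of 7.81-fold: relative to its mean, the log2 ratio of LOX to LOXL4 was -0.71, -1.52, 1.45 and 0.78 in dogs 1 to 4. The 4 pairs with LOXL4 had SDs of 0.93 to 1.36, and the 6 pairs without it had SDs of 0.14 to 0.72. PLOD1 and PLOD2 moved closely together (SD 0.17), whereas PLOD1 to PLOD3 had an SD of 0.40. P4HA1 to P4HA2 had an SD of 0.38, with the ratio lowest in dog 2 (-0.45) and highest in dog 4 (0.45). With 4 dogs and no second group, these ratios are descriptions without a test.

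Relative to their collagen substrates, the summed reads of each enzyme family were highest in dog 4. Lysyl oxidases had 26.9, 28.3, 22.4 and 41.8 reads per 1000 reads of the 11 fibrillar collagen genes in dogs 1 to 4 (29.8 ± 8.34, SD, n = 4). LOXL2 supplied most of these, with 20.3, 21.7, 15.5 and 31.1, whereas LOXL4 was highest in dog 2 (1.21, 1.8, 0.344 and 0.772). For lysyl hydroxylases the values were 12.6, 11.7, 10.4 and 23.7 (14.6 ± 6.12), and for the 2 prolyl hydroxylase subunits 7.01, 5.31, 5.14 and 9.58 (6.76 ± 2.06). For the lysyl hydroxylases both parts of the ratio were extreme in dog 4. Fibrillar collagen genes took 9.99% of its reads against 14.1% to 14.5% in the other dogs, and lysyl hydroxylases 2360 CPM against 1460 to 1830. Prolyl hydroxylase subunits, in contrast, had 958 CPM in dog 4 and 1020 in dog 1. Lysyl oxidases had 3900, 4000, 3160 and 4170 CPM in dogs 1 to 4, so dog 4 was only slightly above dogs 1 and 2.

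Of the 11 fibrillar collagen genes, all detected, 7 were called above and 3 below. Of 29 other collagen genes measured, 7 were not detected. Of the 22 detected, 9 were above and 10 below. Over all detected genes 33.3% were above, and 6163 of 17200 were below. The type I collagen chains were lowest in dog 4. COL1A1 had 647793, 658671, 658936 and 376360 normalized reads in dogs 1 to 4, and COL1A2 had 454119, 466786, 476773 and 316881. COL3A1, the chain of collagen type III, had 842670, 707085, 681142 and 657361. COL12A1, which coats fibrils, was highest in dog 4, with 34317, 24861, 22710 and 162599.

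**Figure D4:**
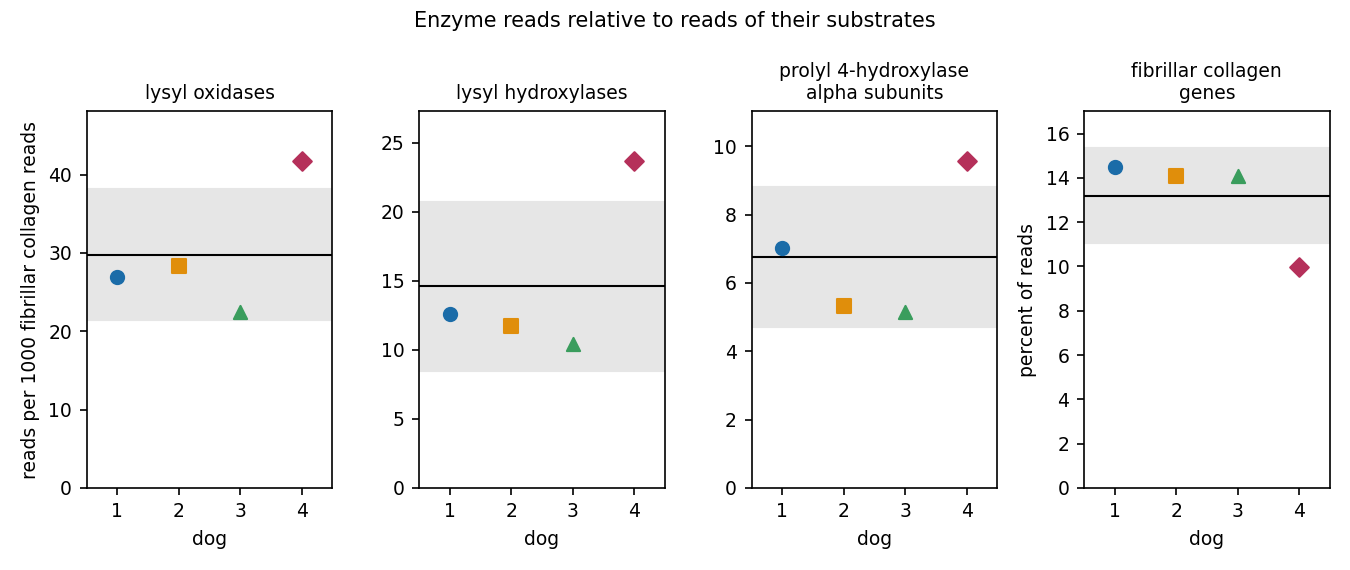
Reads of each enzyme family per 1000 fibrillar collagen reads (first 3 panels) and percent of reads from fibrillar collagen genes (last panel) in each dog, with the mean (line) and 1 SD (grey band). Dog 4 has the highest ratio in all 3 families and the lowest collagen percentage, 9.99%.

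The partners that the hydroxylases work with were counted in lists chosen by function. Of 8 other prolyl hydroxylases and subunits, 6 exceeded the median detected gene and 2 did not pass, with a median level of 3.37. P4HB, CRTAP (3.99 ± 0.18), P3H1 (3.83 ± 0.25) and P3H4 (3.62 ± 0.06) were among the 6. CRTAP and P3H1 form the complex that hydroxylates proline at the 3 position, and P3H4 is a partner of lysyl hydroxylase. P4HTM (0.52 ± 0.18), a transmembrane prolyl hydroxylase, and P3H2 (-1.45 ± 0.77), which acts mainly on basement membrane collagen, did not pass the test. P3H2 was below without dog 3 (-1.93), with the reference over genes read in all 4 libraries (-2.28) and at a distance of 0.5 (limma, adjusted p = 0.0156, 0.00206 and 0.00829). Without dog 3 the reference changed too. Of 19 measured collagen glycosyltransferases, chaperones and secretion genes, 16 were above and 1 was below. SPARC (8.85 ± 0.30), a collagen-binding glycoprotein, and SERPINH1 (7.93 ± 0.12), the collagen chaperone, were above, as were the general chaperones HSP90B1 and HSPA5 (6.26 ± 0.27 and 6.22 ± 0.24). COLGALT2, a collagen galactosyltransferase, was below at -3.70 ± 0.33 with 1 normalized read in dog 1, 2 in dog 4 and 0 in the other 2 dogs.

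Genes that activate or assist lysyl oxidases were more mixed. Of 14 measured, 9 were above, 3 below and 2 neither, and their median SD between dogs was 0.63. Fibronectin (FN1, 9.76 ± 0.43), the scaffold on which LOX is processed, the matricellular THBS1 (8.88 ± 0.93), the microfibril gene FBN1 (8.73 ± 0.23) and the protease BMP1 (5.65 ± 0.43), which cleaves the LOX propeptide, were above. The BMP1 relatives TLL1 (-2.44 ± 0.58) and TLL2 (-2.79 ± 0.53) were below. BMP1 had 8148, 7811, 5642 and 11585 normalized reads, highest in dog 4 and lowest in dog 3 like PLOD1, PLOD2 and PLOD3. Of 7 measured procollagen processing genes, 4 were above: BMP1, its enhancer PCOLCE (5.60 ± 0.10), and the N-propeptidases ADAMTS2 (4.64 ± 0.11) and ADAMTS14 (3.32 ± 0.46).

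Supply of the metal and of the cosubstrates was described by 2 further lists. Of 7 copper genes 2 were above and 2 below, shares close to those of all detected genes (33.3% above, and 6163 of 17200 below). Those above were ATP7A (2.31 ± 0.12), the pump that loads copper into secreted enzymes, and its chaperone ATOX1 (1.92 ± 0.41), which lost its call with the reference over genes read in all 4 libraries (1.10, limma, adjusted p = 0.377). COX17 (-2.13 ± 0.59) and SLC31A2 (-1.56 ± 0.43) were below, the latter not without the filter on detection (limma, adjusted p = 0.0776), and the importer SLC31A1 did not pass the test (162, 129, 188 and 137 normalized reads). Of 12 measured genes for ascorbate, iron and 2-oxoglutarate, 10 were above and 1 was below. Of the ascorbate transporters, SLC23A2 (2.86 ± 0.17) was above and SLC23A1 (-2.02 ± 0.41) below. Those above included the ferritin chain FTL (5.65 ± 0.20), the metal importer SLC39A14 (4.71 ± 0.47), FTH1 (4.46 ± 0.36) and the glucose and dehydroascorbate transporter SLC2A1 (3.81 ± 0.92).

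**Figure D5:**
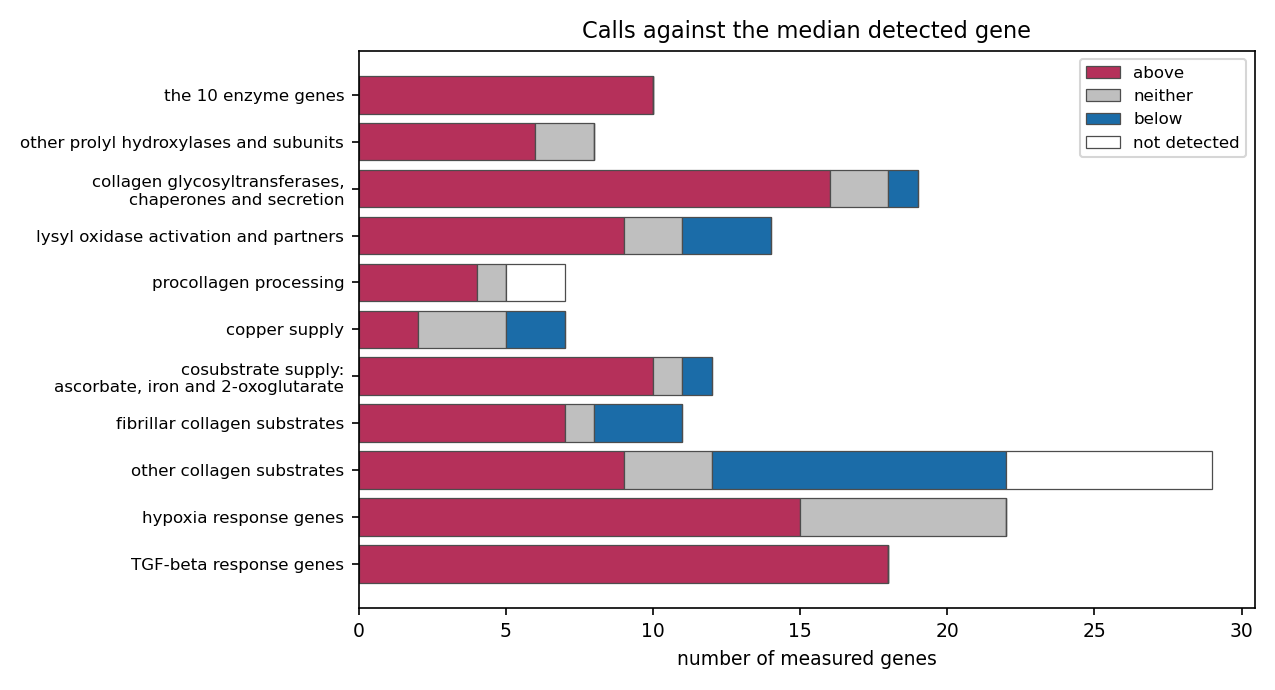
Number of measured genes (x axis) called above, neither or below the median detected gene by limma at a distance of 1 log2 unit, or not detected, for the 10 enzyme genes and 10 pathway lists. All 10 enzyme genes were above, as were all 18 genes of the list labelled TGF-beta response, which also holds ligands, receptors and SMADs, against 2 of 7 copper supply genes.

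Genes of the hypoxia list were highest in dog 4 in 17 of 22 and lowest in dog 2 in 15 of 22, against 36.8% and 20.3% of all detected genes. These counts stayed at 16 to 18 and 14 to 15 under the 5 other scalings, against 31.3% to 38.6% and 17.9% to 20.6% of all detected genes. By level, 15 of them were above, 7 neither and none below. The list holds the regulators HIF1A, EPAS1, ARNT and VHL beside response genes, so its counts are no measure of a response. HIF1A, EPAS1 and ARNT were highest in dog 4, and VHL in dog 3. VEGFA had 27605, 15552, 16078 and 27466 normalized reads in dogs 1 to 4, the glycolytic enzyme PGK1 had 7091, 4365, 5120 and 9189, and HIF1A, the oxygen-regulated transcription factor, 8720, 4693, 5282 and 13073. In P4HA1 and in these 3 genes dogs 1 and 4 were the 2 highest. The rest of the list shared this except CA9, CA12, EGLN1, EGLN3, KDM3A, PFKFB4, ARNT and VHL. The share of all detected genes with that order was not computed. CA9, a carbonic anhydrase known as a hypoxia marker, had 40, 41, 51 and 740. The part of oxygen supply in these differences was not tested.

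All 18 genes of the TGF-beta list were above, among them LTBP2 (7.51 ± 0.43), TAGLN (7.38 ± 0.68) and ACTA2 (7.34 ± 1.04). The list holds ligands, receptors and SMADs of the pathway beside response genes, so its levels are no measure of a response. SMAD3 (1.48 ± 0.34), a signal transducer of the pathway, lost its call without dog 1, 2 or 4 (limma, adjusted p = 0.259, 0.342 and 0.17) and after thinning (0.0923). Leaving out a dog also changes the reference, so a call lost in this way is not the effect of the dog alone. With the reference over genes read in all 4 libraries SMAD3 (0.66, adjusted p = 1) and the matrix gene TGFBI (1.3, adjusted p = 0.226) were not called (limma). Dog 4 was highest in 13 of the 18 and dog 3 lowest in 12, against 36.8% and 31.1% of all detected genes. Of 7 detected smooth muscle and pericyte markers 6 were highest in dog 4, and the 8 measured markers summed to 4230, 3130, 2350 and 7540 CPM in dogs 1 to 4. ACTA2 and TAGLN belong to both this list and the TGF-beta list, so the 2 counts are not separate observations. These genes supplied most of the marker sum in every dog. Of the smooth muscle and pericyte markers RGS5 had 0 reads in every dog and DES had at most 9 normalized reads. Summed epithelial and mesothelial markers were 7.94, 6.96, 22.7 and 58.2 CPM, and all reads of the sum in dog 4 were KRT18. WT1 (106, 84, 303 and 0 normalized reads) and UPK3B (14, 12, 3 and 0) were lowest in dog 4, and CDH1 was at 0 in every dog. The part of such cells, or of a contractile state, in the enzyme levels was not tested.

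For the 4 genes with an SD of at least 0.5, the genes with the most similar deviations over the 4 dogs were sought by root mean square distance in log2 units. Candidates were the detected genes with a symbol that also had an SD of at least 0.5. For LOXL3 they were CHST12, IRAK3 and VCAN (0.039 to 0.056). VCAN, which encodes the large matrix proteoglycan versican, had 62431, 61655, 37600 and 125515 normalized reads. Genes near PLOD1 included the integrin chain ITGB1 (0.019) and CDR2 (0.021), and ITGB1 had 21240, 16118, 15017 and 32755. LOXL4 had few near neighbours: BMPR1B (0.099), a BMP receptor with 174, 210, 27 and 72 normalized reads, was the only gene within 0.2, while 214 genes were that near to LOXL3 and 233 to PLOD1. The distance of 0.2 was not scaled to the SD of the gene, which was largest in LOXL4 (1.10), so these counts are not on equal terms. The nearest to P4HA1 were MPPED1, PLAC8L1 and KRT12, all at 4 normalized reads or fewer. Among genes called above the median, a restriction chosen after these values were seen, they were FAM162A, XYLT1 and PML (0.111 to 0.114). With 4 libraries many genes share a pattern, and no test was made.

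The strand setting of the read counting is unknown, so reads of overlapping genes cannot be told apart. In the RefSeq gene table of the dog assembly UU_Cfam_GSD_1.0, which differs from the build of the files, 9 of the 10 genes had an entry and 5 overlapped another gene. LOXL3 overlaps the adaptor gene DOK1, which had 508, 487, 563 and 596 normalized reads, a narrower range than that of LOXL3. LOX, LOXL2 and LOXL4 each overlap a long noncoding RNA, and P4HA1 a pseudogene. The share of their reads that came from these neighbours was not tested.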

How the data were processed

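Total RNA of 4 canine adipose MSC cultures was sequenced, 1 library per dog, from 10 ng of RNA with a stranded, ribosomal RNA-depleting kit, per the labels' protocols. The submitters' processing notes name FastQC 0.12.1, Trimmomatic 0.39, STAR 2.7.11a, DESeq2 and CanFam3.1, while the counting tool, strand option and annotation release are not given in sources used here. Values were deposited by the authors as log2 numbers after a variance-stabilizing transformation, per the title of the deposited table, without correction for gene length. Reads per gene were recovered by inverting the transformation from the value of 0 reads: 100% of values above it were whole within 0.01 reads.

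Levels were tested with limma 3.58.1 (R 4.3.3; intercept only, trended prior, distance 1, Benjamini-Hochberg over 17200 detected genes, threshold 0.05), and the spread by an F test against the trended prior. Both were also run on simulated data, in which unaltered genes were given the same SD between dogs at every level. In the real data the prior SD varied with level, so the simulation does not bear on that feature. Its outcome is not reported here. Replicates are separate dogs, so the error holds dog, culture and library together. The 10 genes and the pathway lists were chosen with earlier results of these data known. Named genes are the 10 members, up to 4 highest and 2 lowest detected genes of each list, the 3 nearest patterns of members with an SD of at least 0.5, and, chosen after their values were seen, P4HA3, SLC23A2, DOK1, and the marker genes without reads; some genes that the rule names are not reported here. Planned comparisons of members per length were not made, because no transcript lengths were used here. Alternatives covered the reference, the distance, scaling, pseudocounts, filters, the prior, thinning to 7474011 reads and leaving out each dog; scaling of the highest and lowest dog was added after seeing the data. Tables used Python 3.11.15 with numpy 2.4.6 and pandas 2.3.3.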

Additional observations from a re-analysis of the deposited data

Results flagged for a closer look

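In 11 of 99 results the library farthest out was separated from the nearest other by a share of the range above the 95% critical value of Dixon's test for 4 samples, a gap that chance gives in about 1 in 20 groups; none of the 10 enzyme genes was among them. Among the ratios, lysyl hydroxylases had 23.7 reads per 1000 fibrillar collagen reads in dog 4, against 10.4 to 12.6 in the other dogs.

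In the lists around the enzymes, dog 4 stood apart in COL1A1 (level 11.21, against 12.0 in each of the others), COL1A2 (10.96 against 11.48 to 11.53), COL4A3 (-3.95 against -3.56 to -3.53), CA9 (2.26 against -1.44 to -1.21), VIM (8.48 against 9.48 to 9.59), CD68 (-2.09 against -3.12 to -2.96), KRT18 (2.60 against -2.83 to -1.94) and PPARG (-0.24 against 1.12 to 1.17). COL4A3 and CD68 lay near the floor, with 1, 1, 1 and 0 reads and 7, 4, 5 and 9 reads in dogs 1 to 4. Dog 4 was the shallowest library, so these gaps rest on a few reads. Dog 1 stood apart in PCOLCE, at 5.74 against 5.55 in each of the others, and dog 2 in TLL1, at -1.59 against -2.83 to -2.66.

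These 99 results are the genes named by the rule and the ratios. Among the 83 detected list genes outside the rule, 7 had such a gap: COL14A1 (0.93 in dog 4, against 3.36 to 3.43), COL8A2 (1.59 in dog 4, against -1.25 to -0.82) and KDM3A (3.70 in dog 4, against 2.98 to 3.08), PDIA3 (5.98 in dog 1, against 5.52 in each of the others), and CA12 (2.72), COL11A2 (-2.51) and SLC25A11 (2.84), all low in dog 3.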

How the results depend on the processing

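All 10 enzyme genes remained above the median detected gene under every alternative run except the distance of 3, where LOXL3 (3.23) and LOXL4 (3.48) lost their call. Without any 1 dog the levels of the 10 genes lay between 2.69 and 8.06. Over all genes, 3729 were above when the reference was taken over genes with reads in all 4 libraries and 1388 at the distance of 3, in place of 5723. List genes above numbered 62 at the distance of 3 in place of 105, and list genes below 0 at that distance, 47 with no filter and 16 with genes read in all 4 libraries only, in place of 30. No enzyme gene passed the spread test under any alternative run (smallest adjusted p 0.132, LOXL4 without dog 4, limma), and over all genes 1 passed without dog 4 (ENSCAFG00000028987, no symbol, adjusted p = 0.0421, limma) and 0 in the other alternatives run; leaving out each dog gave 0 to 1. Genes near the median changed sign without any call: SLC31A1 (-0.71 with the stricter reference, -0.05 thinned, -0.18, -0.07, -0.15 and -0.08 without dogs 1 to 4), PCOLCE2 (-0.70 with that reference, -0.46 to 0.02 without 1 dog), CSF1R (-0.73, and -0.34 to 0.13 without 1 dog), and, with that reference, P4HTM (-0.30), TMEM38B (-0.26), IDH1 (-0.27) and PPARG (-0.02). All these settings changed the genes behind the reference median. Without a dog, detected meant reads in 2 or more of the remaining libraries. A level without 1 dog thus holds both the loss of that dog and a changed reference. For SLC31A1, below 0 whichever dog was left out, the mean level over the 4 dogs was 0.11. The parts of dog and reference were not separated. COL1A1, COL1A2 and COL3A1 lost their call with no filter (limma, adjusted p = 0.12, 0.053 and 0.201). Their levels in that setting were unchanged at 11.8, 11.37 and 12.13. Already in the main setting their prior SDs (1.41, 1.23 and 1.57) were larger than their own SDs between dogs (0.39, 0.27 and 0.16). KRT18 (-2.73) and CA9 (-1.59) were below without dog 4. Of all list gene levels recomputed, 1051 kept side and direction, 39 lost and 7 gained a call. The length-corrected alternative was not run. No paired analysis was possible because the labels give 1 group. Depth limits genes near 0 reads, not the 10 enzymes, whose lowest count was 577 reads.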

Other observations

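Of 7 measured genes of the elastic fibre, a substrate of LOX and LOXL1, 3 had wider ranges between dogs than any of the 10 enzymes (ELN, FBN2 and FBLN5) and 4 had narrower ranges than LOXL4 (FBN1, EFEMP2, LTBP4 and MFAP4, 1.3-fold to 3.58-fold); they were chosen after their values were seen. Elastin (ELN) had 1670, 315, 4193 and 1475 normalized reads in dogs 1 to 4, a range of 13.3-fold, and the microfibril gene FBN2 had 223, 371, 3298 and 995, a range of 14.8-fold. Both were highest in dog 3, in which LOXL1 was also highest, at 1.40-fold above its lowest dog. FBLN5, which guides elastin assembly, was highest in dog 4 and lowest in dog 2, with 184, 123, 391 and 844 normalized reads, a range of 6.87-fold. None passed the spread test (limma prior, Benjamini-Hochberg adjusted p = 0.21 for ELN and FBN2 and 0.395 for FBLN5). POSTN, a matricellular partner of BMP1 in LOX processing, had 3684, 842, 2826 and 345 normalized reads (adjusted p = 0.21, limma prior) and was lowest in dog 4, where LOX was highest.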
